A study of Mus musculus with 10 samples.

Results

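The ovarian surface epithelium genes described here are 10 transcripts chosen by name: the keratins Krt7, Krt8, Krt18 and Krt19, the uroplakins Upk1b and Upk3b, the mesothelial glycoproteins Msln and Muc16, the adhesion molecule Epcam and the galectin Lgals7. All 10 were found among the 22891 genes of the table, and all 10 were among the 15629 kept by the filter on low values (a linear mean of 10 or more). RNA came from whole ovaries of 3-week-old, non-stimulated mice of a C57/Bl6/N;129SvEv7 strain, with 5 control libraries and 5 libraries labelled Uba3 cKO. The Uba3 protein is a subunit of the E1 enzyme for NEDD8, a ubiquitin-like modifier. The labels give neither the Cre driver nor the deleted exons, so they do not say in which cells of the ovary the gene was deleted, and nothing in them says whether each library came from a separate animal. The p-values therefore measure the spread between these samples.

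The surface epithelium is a modified mesothelium that covers the ovary and rests on a basement membrane over the stroma. Its cells carry keratin filaments of simple epithelia, in which a type I chain such as Krt18 or Krt19 pairs with a type II chain such as Krt7 or Krt8. Mesothelial cells also carry mesothelin (Msln), a lipid-anchored surface protein, and Muc16, a very large mucin that binds it. Uroplakins are membrane proteins best known from the plaques of the bladder lining, of which Upk3b and Upk1b are also made by mesothelium.

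Values are log2 levels as deposited, normalized between libraries, with no counts behind them to give a depth. Library medians lay between 6.29 and 6.44. The targeted gene did not separate the groups: Uba3 had a mean of 10.12 ± 0.18 in the controls and 10.12 ± 0.069 in the libraries labelled Uba3 cKO (SD, n = 5 each; exact permutation p = 1). Its level therefore gives no check of the genotype, and Uba3 cKO is used below as a label. In whole-organ RNA, fewer cells of a type and less RNA per cell cannot be told apart.

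Promoter sequence of 7 of the 10 genes (Krt7, Krt8, Krt18, Lgals7, Muc16, Upk3b and Epcam) was matched by symbol in the RefSeq table of build GRCm38.p6. The bases before the start of 4 of them are shown, picked by how the levels of these genes varied. Krt7 and Upk3b varied with most of the set across libraries, and Krt8 and Krt18 did so less. Krt8 and Krt18 are neighbours on chromosome 15, on opposite strands with no annotated gene between them. A relation of sequence to level was not tested. Each run holds the 250 bases before the start, 5′ to 3′ on the gene's own strand: Krt7 at chr15:101412153-101412402 (+), Upk3b at chr5:136038246-136038495 (+), Krt8 at chr15:102004343-102004592 (-) and Krt18 at chr15:102027966-102028215 (+). Capitals mark matches, on either strand, to 5 short motifs, none of which is part of another. The first is the TATA box, searched as TATAAA. The GC box, known to be bound by Sp1 and other zinc finger factors, was searched as GGGCGG. The motif of the TEAD factors, which act at the end of the Hippo pathway, was searched as CATTCC. The motif of AP-1, the dimer of Fos and Jun proteins, was searched as TGANTCA. The motif of the GATA family of zinc finger factors was searched as AGATAA.
Krt7: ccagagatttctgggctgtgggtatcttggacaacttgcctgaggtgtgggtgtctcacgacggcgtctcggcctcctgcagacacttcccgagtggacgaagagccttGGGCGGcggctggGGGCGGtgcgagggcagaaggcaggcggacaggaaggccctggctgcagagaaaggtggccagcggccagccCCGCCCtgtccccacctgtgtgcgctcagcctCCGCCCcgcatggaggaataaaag
Upk3b: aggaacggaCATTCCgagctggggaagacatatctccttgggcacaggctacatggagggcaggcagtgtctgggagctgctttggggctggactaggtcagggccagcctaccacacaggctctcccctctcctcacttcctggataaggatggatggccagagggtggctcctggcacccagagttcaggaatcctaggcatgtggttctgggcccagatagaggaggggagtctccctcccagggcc
Krt8: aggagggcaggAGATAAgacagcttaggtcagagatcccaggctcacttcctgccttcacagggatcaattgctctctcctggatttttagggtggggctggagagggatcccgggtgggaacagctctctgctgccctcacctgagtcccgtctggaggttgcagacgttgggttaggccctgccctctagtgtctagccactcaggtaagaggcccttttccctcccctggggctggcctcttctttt
Krt18: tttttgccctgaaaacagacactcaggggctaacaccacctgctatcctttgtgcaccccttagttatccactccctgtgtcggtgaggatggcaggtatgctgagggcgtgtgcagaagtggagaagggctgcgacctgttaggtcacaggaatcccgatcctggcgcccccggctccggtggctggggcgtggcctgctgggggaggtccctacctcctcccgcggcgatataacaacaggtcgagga

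The GC box occurred 4 times before Krt7, on both strands, and in 3 of the 7 matched genes (Krt7, Lgals7 and Epcam), against 32.9% of 27025 promoters of the same length. CATTCC occurred before Upk3b, which is 1 of 7 against 12.6% of all promoters. AGATAA occurred before Krt8, also 1 of 7, against 10.3%. TATAAA, held by 13.0% of promoters, and TGANTCA, held by 6.87%, had no match in the 7. Muc16, which held no match to any motif, is counted in the 7. Its start did not lie in a GENCODE M21 transcript, unlike the starts of the others. The printed Krt18 run held no match to any of the 5 motifs.

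The keratins were all readily measured. Krt8 stood at 9.97, 10.16, 10.48, 10.10 and 10.13 in control replicates 1 to 5 and at 10.24, 10.19, 10.15, 10.22 and 10.04 under the Uba3 cKO label. Its partner Krt18 stood at 8.33, 8.78, 9.19, 8.48 and 8.58 in controls and at 8.51, 8.63, 8.54, 8.85 and 8.77 under the Uba3 cKO label. For both genes control replicate 1 was the lowest library and control replicate 3 the highest, so the whole Uba3 cKO range lay within that of the controls. Krt19, the small type I keratin of simple epithelia, stood at 8.78, 9.50, 9.72, 9.75 and 9.33 in controls and at 9.11, 9.70, 9.03, 9.46 and 9.69 under the Uba3 cKO label. Krt7, a type II keratin of simple and ductal epithelia, stood at 7.40, 8.10, 8.01, 7.93 and 7.83 in controls and at 7.72, 7.87, 7.61, 7.92 and 8.02 under the Uba3 cKO label. Krt19 and Krt7 were also lowest in control replicate 1, and their groups overlapped throughout.

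The keratin counts could be touched by copies of these genes. Krt8-ps, a processed pseudogene, matched the main Krt8 transcript at 98.6% identity over 48.1% of its length, and it was listed in the table at a mean of 1.13, far below Krt8. The pseudogenes Gm5200 and Gm17847 matched 88.2% and 74.1% of the Krt18 transcript at 90.5% and 86.5% identity, and they have no deposited values. How reads that fit several places were treated is not given in the sources used here, so the levels of Krt8 and Krt18 carry that uncertainty. Krt8 also overlaps Gm36026, a noncoding RNA on the other strand listed at a mean of 0.958. Krt7, Lgals7 and Muc16 overlap noncoding genes on the other strand too, which have no deposited values. Whether strand was used in counting is not given either, so this uncertainty touches all of these genes. Apart from Krt8 and Krt18, the other 8 genes had no copy that matched at least 30% of the transcript.

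The uroplakins and the mesothelial glycoproteins varied more between libraries than Krt8 did. Upk3b, the highest of the 10 genes by deposited value, stood at 10.40, 11.18, 11.02, 11.55 and 10.89 in controls and at 10.47, 11.40, 10.66, 11.18 and 11.38 under the Uba3 cKO label. Upk1b, a tetraspanin that partners other uroplakins, stood at 7.78, 8.71, 8.51, 8.91 and 8.69 in controls and at 8.17, 8.89, 8.22, 8.64 and 8.55 under the Uba3 cKO label. In each group the same libraries were low for both genes: control replicate 1, and Uba3 cKO replicates 1 and 3. Muc16 stood at 7.96, 8.59, 8.17, 8.67 and 8.21 in controls and at 7.72, 8.77, 7.64, 8.35 and 8.67 under the Uba3 cKO label. Its binding partner Msln stood at 8.13, 8.70, 9.05, 9.46 and 8.86 in controls and at 8.46, 9.20, 8.52, 8.59 and 9.17 under the Uba3 cKO label. Uba3 cKO replicates 2 and 5 were the highest of their group for Upk3b, Muc16 and Msln, and control replicate 4 was the highest control for these 3 genes and for Upk1b. Muc16 was the only one of the 10 genes whose lowest library was not control replicate 1 but Uba3 cKO replicate 3.

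Epcam and Lgals7 complete the set. Epcam, a homophilic adhesion protein of epithelia that germ cells are also known to carry, stood at 7.15, 7.90, 7.80, 8.07 and 7.32 in controls and at 7.39, 7.96, 7.24, 7.96 and 7.44 under the Uba3 cKO label. Lgals7, a galectin best known from stratified epithelia, stood at 8.15, 8.86, 9.45, 8.77 and 8.59 in controls and at 8.41, 8.81, 8.36, 8.60 and 8.93 under the Uba3 cKO label. Control replicate 3 alone held the highest Lgals7 value, while Epcam split each group into high and low libraries, replicates 2, 3 and 4 of the controls and replicates 2 and 4 of the Uba3 cKO group being high.

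**Figure D1:**
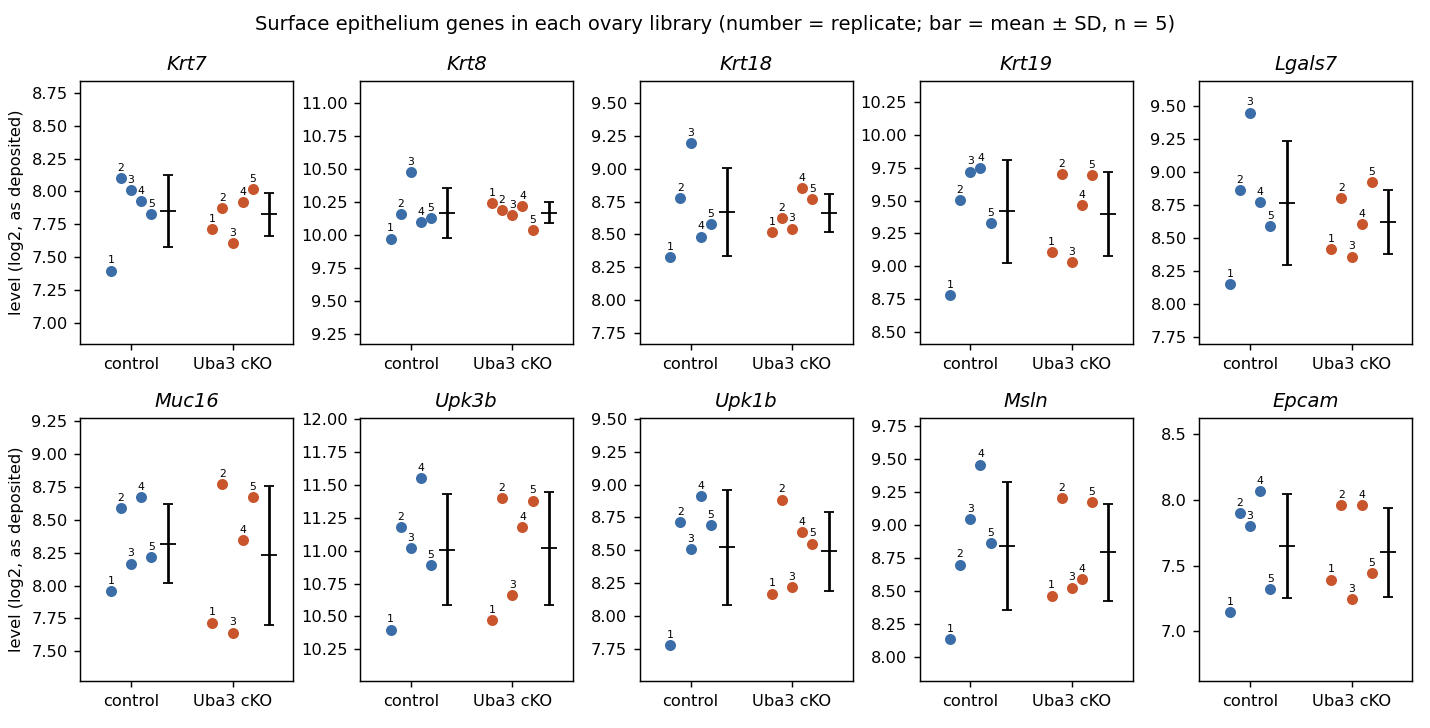
Deposited log2 level (vertical axis, 2 log2 units in every panel) of each gene in each library, with the 5 controls at the left and the 5 Uba3 cKO libraries at the right; numbers are replicates, and bars are mean ± SD (n = 5). The groups overlap for all 10 genes, and control replicate 1 is the lowest library for 9 of them.

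Compared per length, the genes spanned a wide range. On the log2 scale per kilobase of the principal transcript in GENCODE M21, Krt8 averaged 9.20 over the 10 libraries, Upk3b 9.19, Lgals7 9.10, Krt19 8.75 and Krt18 8.14. Msln followed at 7.70 and Upk1b at 7.59, then Epcam, then Krt7 at 5.81, and Muc16, whose transcript is 25437 bases long, was last at 3.61. From Krt8 down to Epcam, the library ranges of neighbours in this order overlapped. The ranges of Epcam (6.12 to 7.04) and Krt7 (5.37 to 6.07) did not overlap, nor did those of Krt7 and Muc16 (2.97 to 4.10). The order depends on the transcript used, since Krt7 was divided by a 4094-base transcript and Lgals7 by a 754-base transcript.

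No surface epithelium gene differed between the groups beyond the spread of its libraries. By limma's test over all 15629 genes, 0 of the 10 genes passed an adjusted p of 0.05, where 0% of all genes did. At an unadjusted p under 0.05 there were also 0 of the 10, against 1.79% (280) of all genes, and the groups did not overlap in 0 of the 10, against 0.32% (50) of all genes. Exact two-sided permutation tests of single genes gave p from 0.587 for Lgals7 to 0.984 for Krt8, where 5 against 5 libraries can reach 0.00794.

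Lgals7 had the largest, a log2 difference of -0.14 (standard error 0.20; 95% interval -0.57 to 0.28; limma adjusted p = 1), from 8.77 ± 0.47 in controls (SD, n = 5) to 8.62 ± 0.24 (SD, n = 5). Muc16 went from 8.32 ± 0.30 to 8.23 ± 0.53, a difference of -0.089 (95% interval -0.57 to 0.39). Upk3b, at 11.01 ± 0.42 and 11.02 ± 0.43, differed by 0.013 (95% interval -0.45 to 0.48). The remaining glycoprotein and uroplakin genes were as close, with Msln at 8.84 ± 0.49 and 8.79 ± 0.37 and Upk1b at 8.52 ± 0.44 and 8.49 ± 0.30. Krt8 had the tightest bound of the set, a difference of -0.0030 (95% interval -0.19 to 0.18), which limits the fold to between 0.878 and 1.13. Over the 10 genes the intervals bounded the fold between 0.673 and 1.40, so a 2-fold change of any of them in whole ovary lay outside its interval. These intervals describe the organ and do not resolve changes within the epithelium.

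The mean was lower under the Uba3 cKO label for 9 of the 10 genes, against 49.8% of all genes tested, and higher for 1, Upk3b, against 50.2%, with a median difference of -0.029 beside 0.000340 over all genes. That count rested on single libraries, an alternative added after the data were seen. Without Uba3 cKO replicate 3 it was 1 of 10, without Uba3 cKO replicate 1 or control replicate 3 it was 3, and without control replicate 2 or 4 it was 4 or 5. With any other library left out it stayed at 9 or rose to 10. Because the genes followed one another across libraries, they were not 10 separate readings of the direction.

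**Figure D2:**
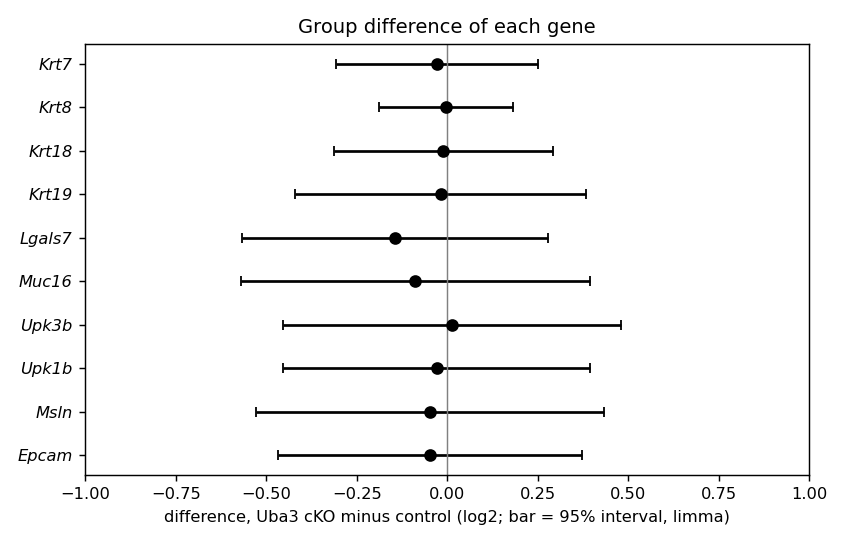
Difference of the group means of each gene, Uba3 cKO minus control, on the log2 scale (horizontal axis), with the 95% interval from limma as bars. All 10 intervals include 0, and all lie between -0.57 and 0.48.

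The genes varied between libraries more than most genes of like mean, as did markers of several other ovarian cell types. The SD over all 10 libraries was above the median SD of genes of like mean (within 0.5 log2 units) for all 10. Upk3b had an SD of 0.40, where 1770 genes of like mean had a median of 0.12, and lay at the 99.2nd percentile of them. Msln (SD 0.41) lay at the 98.4th percentile, Muc16 (0.41) at the 97.8th and Lgals7 (0.36) at the 97.5th. Krt8, with an SD of 0.14, lay at the 60.4th percentile and was the least variable of the set. From the lowest to the highest library, Msln spanned 2.51-fold, Lgals7 2.47-fold, Upk3b 2.22-fold and Muc16 2.19-fold, whereas Krt8 spanned 1.42-fold. The median percentile of the 10 genes was 96.9, beside 98.4 for the 9 stroma markers, 98.0 for theca, 97.5 for oocytes and 76.8 for granulosa, so a wide spread was not particular to the surface epithelium genes.

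A mean profile of the set, with each gene centred on its own mean, overlapped between the groups. Among controls the profile was lowest in replicate 1 (-0.50) and highest in replicate 4 (0.27), which differed 1.70-fold. In the Uba3 cKO group it was lowest in replicate 3 (-0.30) and highest in replicate 2 (0.24), which differed 1.46-fold. In control replicate 1 and in Uba3 cKO replicate 3 all 10 genes were below their own means, and in Uba3 cKO replicate 1 there were 9. In control replicate 3 and Uba3 cKO replicate 2, 9 genes were above.

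Most pairs of the genes varied in the same direction across the 10 libraries. Of 45 pairs, 44 had a Pearson r above 0 and 24 had an r of at least 0.7, with a median of 0.711. Other lists of cell type markers had median pair values above and below it: stroma 0.856, endothelium 0.824, oocytes 0.803, theca 0.308 and granulosa 0.202. Co-variation of this size was therefore not particular to the set. These correlations are descriptions over libraries that share a normalization, and no test was made of them. Krt19 followed the rest most closely, with r = 0.988 (Spearman's rho 0.976) against the mean of the other 9 genes. The highest pair was Krt19 with Upk3b (r = 0.923, rho = 0.855), followed by Muc16 with Upk3b (r = 0.915, rho = 0.891), and with the 2 libraries farthest from the median of the first-named gene left out they had r = 0.879 and 0.915. Msln and Muc16, which bind each other, had r = 0.742. Without control replicate 1 the median over the 45 pairs was 0.595, with 19 pairs at 0.7 or more. The median was 0.717 within controls and 0.705 within the Uba3 cKO group, with 5 libraries each.

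Krt8 stood apart from this pattern. Its r was 0.351 (rho = 0.176) with the mean of the other 9 genes, 0.066 with Upk3b and -0.114 with Muc16, the lowest of the 45 pairs. With its filament partner Krt18 it had r = 0.785 (rho = 0.576), but without control replicate 3 the value was 0.447, and without the 2 libraries farthest from the median of Krt8 it was -0.0034, so the relation rested on those libraries. Krt18 itself followed the other 9 at r = 0.560, and Epcam at 0.798. Within a library, the Upk3b level exceeded that of Krt8 by between 0.24 log2 units in Uba3 cKO replicate 1 and 1.44 in control replicate 4, a 2.31-fold range in the relation of the pair. The Upk3b to Muc16 relation varied less, from 2.44 to 3.02.

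**Figure D3:**
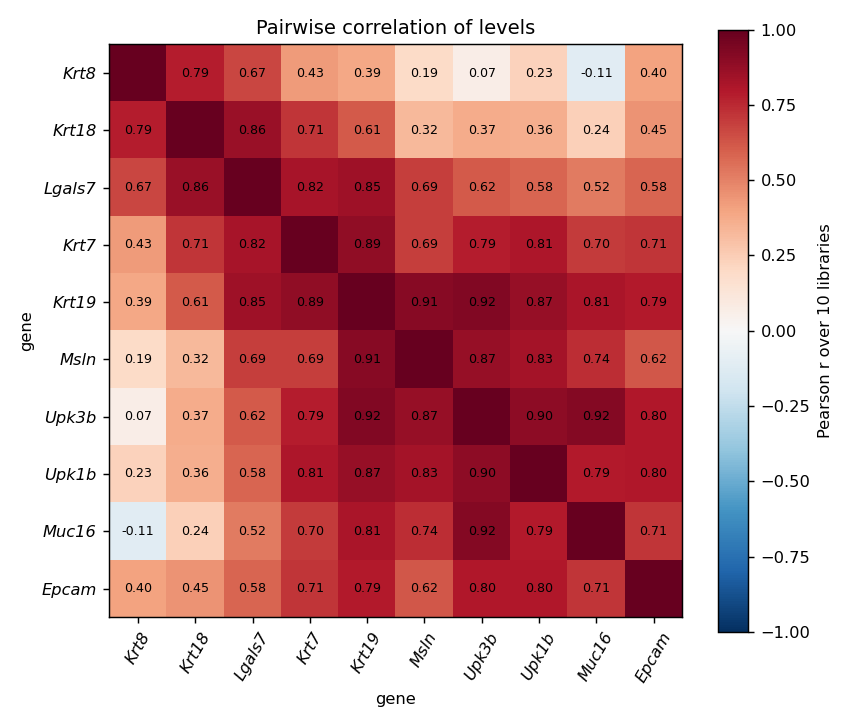
Pearson r of the deposited log2 levels of each pair of genes over the 10 libraries (both axes list the genes; colour and number give r). The block from Krt7 to Epcam is high, with Krt19 and Upk3b at 0.923, whereas the Krt8 row falls to -0.114 with Muc16.

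Dependence on gene length differed between libraries, most of all in control replicate 3. Length here was that of a gene's merged exons, on the log2 scale. Control replicate 3 stood apart in how a library's deviations from the gene means depended on it (9182 genes of log2 mean 8 or more). Its slope was -0.155, short genes reading high, and the other 9 libraries lay between -0.0603 and 0.0584. Control replicate 3 was also the highest library for Krt8, Krt18 and Lgals7. Their principal transcripts, a different measure of length, are 1958, 1437 and 754 bases long. Over the 10 libraries, r with the slope was -0.778 for Krt8, -0.564 for Krt18, -0.558 for Lgals7 and 0.191 for Upk3b. The values for Krt8, Krt18 and Lgals7 lean on control replicate 3, which held both the lowest slope and their highest levels. No r with the slope was taken without that library, so a relation over the other libraries is not shown. The length of the principal transcript did not order these values. Krt19 and Upk1b, with principal transcripts of 1576 and 1894 bases, are shorter than Krt8 and had r = -0.148 and 0.176. The other 4 genes lay between -0.176 (Krt7) and 0.329 (Muc16). The part of length in these levels was not tested. Without control replicate 3 the median r over the 45 pairs was 0.780.

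**Figure D4:**
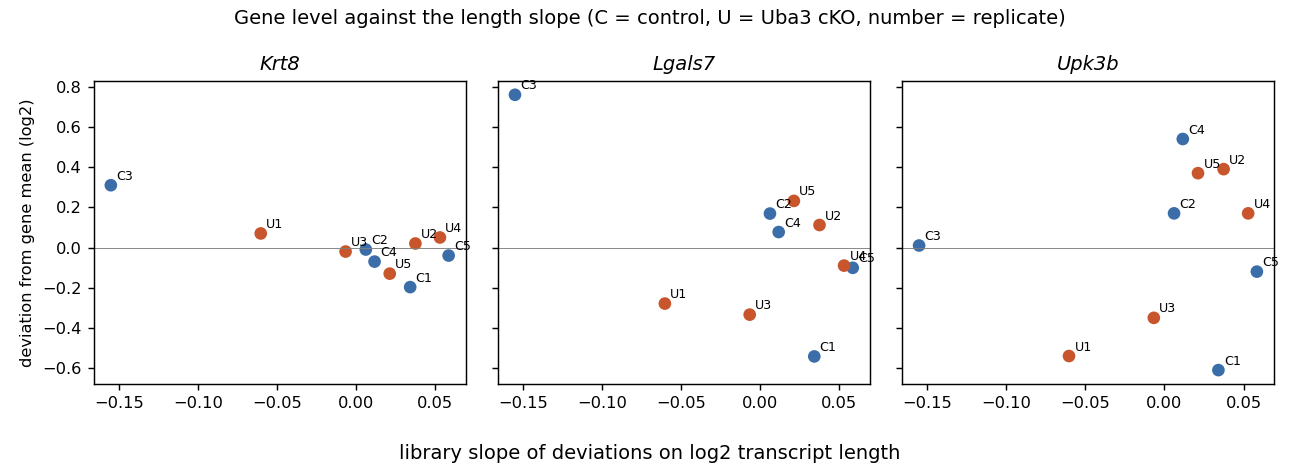
Deviation of Krt8, Lgals7 and Upk3b from their own means (vertical axis, log2) against each library's length slope (horizontal axis). The slope is that of deviations on the log2 length of a gene's merged exons, which the axis calls transcript length. C marks controls, U the Uba3 cKO libraries, and numbers are replicates. Control replicate 3, at a slope of -0.155, is the highest library for Krt8 and Lgals7 but lies near 0 for Upk3b.

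Other genes of mesothelium and surface epithelium varied with the set. Of 15 tested genes of that list, 8 had r of at least 0.7 with the mean profile, against 1.81% of 12347 genes with a mean of at least 50 outside the set. The list was chosen with earlier results of these data known, and 1 of the 15, Muc1, had a mean below 50. The 2 shares are therefore set side by side as a description only. Rspo1, a secreted enhancer of WNT signalling, had r = 0.912, Cldn15, a tight junction protein, 0.906, Aldh1a2, which makes retinoic acid, 0.905, and Gpm6a, a membrane glycoprotein, 0.856. Wt1, a transcription factor that granulosa cells also express, had 0.229. Aldh1a1, another retinaldehyde dehydrogenase, had -0.505, a sign that rested on control replicate 1, where it stood at 12.0, and without that library its r was 0.138. Leaving that library out, a choice made after the data were seen, 9 of the 15 genes reached 0.7, against 2.07% of the 12347. Between the groups, 0 of the 15 genes were called, with 10 higher and 5 lower in the Uba3 cKO group and a median difference of 0.049. Over all genes tested, 50.2% were higher. Bnc1, a zinc finger factor of mesothelium, stood at 8.59 ± 0.17 and 8.83 ± 0.22, a difference of 0.23 (standard error 0.11; limma adjusted p = 1). Muc1, a transmembrane mucin near the filter, stood at 3.58 ± 0.13 and 3.41 ± 0.043 and was the gene of the list at an unadjusted p under 0.05 (limma adjusted p = 1). Slpi fell under the filter.

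Broader epithelial genes followed the set less. Of 12 tested keratins and epithelial junction or identity genes, 1 (Cldn3, a tight junction claudin) had r of at least 0.7 with the mean profile, and without control replicate 1 its r was 0.449 and 0 of the 12 reached 0.7. Between the groups 7 were higher and 5 lower in the Uba3 cKO group, beside 50.2% higher over all genes tested, with 0 called. Elf3, an epithelial ETS factor, stood at 7.80 ± 0.20 and 7.42 ± 0.20, a difference of -0.38 (standard error 0.12; limma adjusted p = 1; exact permutation p = 0.0317). Ocln, the tight junction protein occludin, stood at 6.001 ± 0.15 and 6.19 ± 0.31. The basal keratins Krt14 and Krt15 had means of 1.09 and 0.45 in controls and fell under the filter, whereas Krt20 stood at 6.76 ± 0.20 and 6.59 ± 0.34. Of the other uroplakins and galectins, 5 were tested and 0 called, with 2 higher and 3 lower, and they included Upk3bl at 4.05 ± 0.082 and 4.13 ± 0.059 and Lgals8 at 8.85 ± 0.13 and 8.73 ± 0.11. Upk1a and Upk3a, of the bladder plaque, fell under the filter with control means of 2.82 and 2.22. Lgals1 followed the set with r = 0.719.

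By the rule of likeness, 10 genes outside the set followed its mean profile most closely. Epn3, an endocytic adaptor of epithelia, led with r = 0.978 (rho = 0.952), at 7.78 ± 0.33 and 7.76 ± 0.31. It was followed by B3gnt7, a glycosyltransferase (0.955), Irf5, an interferon regulatory factor (0.944), Bcam, a laminin-binding adhesion protein (0.943), Cystm1 (0.931), Alyref, an mRNA export factor (0.929), and Dmkn, a secreted epithelial protein (0.923). Tm4sf5 (0.921), Sox12, a SoxC transcription factor (0.917), and Gas1, a co-receptor for hedgehog ligands (0.914), completed the 10. Dmkn had the widest range, 2.56-fold from control replicate 1 to control replicate 4, and Sox12 spanned 1.22-fold. With a profile of 7 genes, without Epcam, Krt8 and Krt18, which other ovarian cells may also express, 8 of the 10 stayed among the nearest 10, now led by Gas1.

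Markers of other cell types were measured beside the set. The oviduct epithelium, which lies close to the ovary, had 7 of 11 markers tested, at means from 3.62 to 8.18, while Pax8, Dynlrb2 and Ccdc153 fell under the filter. Their mean deviation was highest in Uba3 cKO replicate 4 (0.318) and control replicate 3 (0.309), and 0 of the 7 had r of at least 0.7 with the set's profile. Krt8 varied most closely with the list of other keratins and epithelial junction or identity genes (r = 0.823), with which Krt18 had 0.583. Krt8 and Krt18 had r = 0.790 and 0.717 with the mean of the oviduct list, and Upk3b and Muc16 had 0.057 and -0.090. With the mean of the 12 oocyte markers, Krt8 had r = 0.640, Epcam 0.468 and Upk3b -0.015. The part of oocytes or oviduct tissue in these levels was not tested.

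Control replicate 1, the library lowest in the set, was the highest for the theca list, with a mean deviation of 0.641, and stood at 0.413 for the 9 stroma markers. Uba3 cKO replicate 3, also low in the set, stood at -0.346 for stroma, and Uba3 cKO replicate 2, high in the set, at 0.426. Stroma thus had no steady relation with the set over the 10 libraries (r = -0.027), but that value rested on control replicate 1. Without that library the 9 stroma markers had r from 0.018 to 0.591 with the set's profile. Without the 2 libraries farthest from the profile's median, r was 0.195 for the stroma list. With the same libraries left out, granulosa went from 0.104 to 0.615 and theca from -0.362 to 0.328. Adipocyte markers were highest in Uba3 cKO replicate 2 (1.14) and control replicate 4 (0.284), which were high for the mesothelial genes too, but lower in control replicate 2 (-0.536) and Uba3 cKO replicate 5 (-0.570), where the set was also above its mean. The 6 macrophage and leukocyte markers ran opposite to the set (r = -0.625; -0.235 without the 2 libraries farthest from the profile's median), with their highest mean deviation, 0.213, in control replicate 1 and their lowest, -0.209, in Uba3 cKO replicate 5. The part of other cell types in the profile was not tested. Of the theca list, 1 gene, Star, the cholesterol carrier of steroid-making cells, had r = 0.752 with the set. Over all 10 libraries, 0 genes of the oocyte, granulosa, stroma, endothelium, smooth muscle, leukocyte and adipocyte lists reached 0.7. Without control replicate 1, Star had r = 0.948, above every tested gene of the mesothelial list. With that library left out, 1 gene of the endothelium list also reached 0.7.

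**Figure D5:**
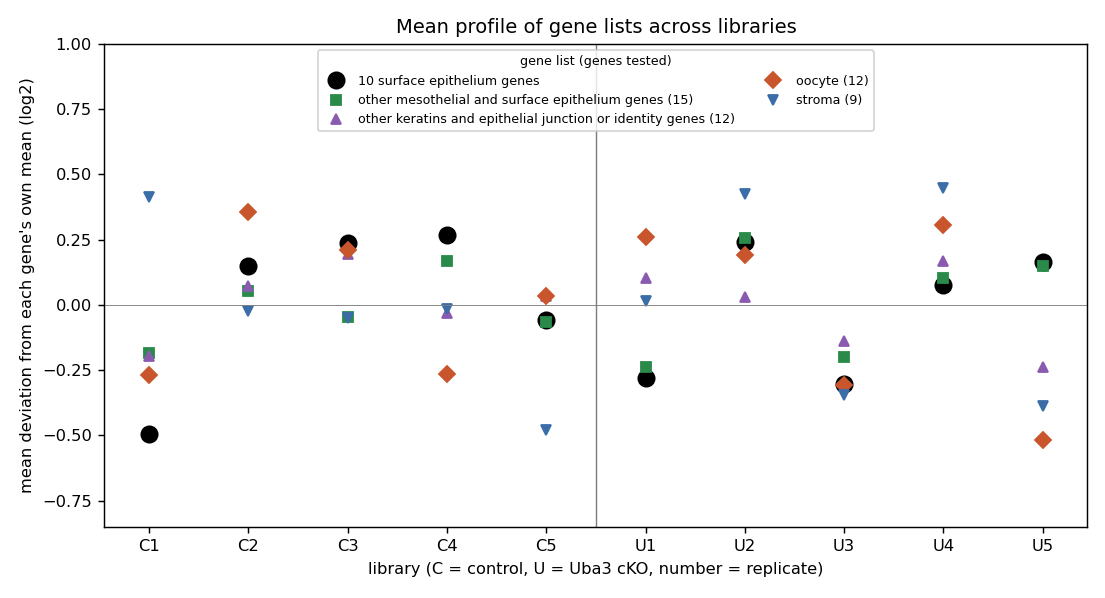
Mean deviation of each gene list from its genes' own means (vertical axis, log2) in each library (horizontal axis; C = control, U = Uba3 cKO, number = replicate). The other mesothelial genes vary with the 10 surface epithelium genes (r = 0.854) but do not match them in every library. They lie at -0.184 in control replicate 1 and -0.045 in control replicate 3, where the set lies at -0.50 and 0.239. Stroma is high (0.413) in control replicate 1.

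None of these cell type lists held a called gene. Over all genes tested, 50.2% had the higher mean in the Uba3 cKO group. Genes of a list can vary together (median pair r 0.856 for stroma, 0.824 for endothelium and 0.803 for oocytes). The counts below are therefore not separate readings of direction, and no test was made of them. The genes with the smallest p of each list were Figla (5.36 ± 0.48 and 5.16 ± 0.23) and Kit (9.38 ± 0.36 and 9.55 ± 0.36) for oocytes, with 3 of 12 higher in the Uba3 cKO group. For granulosa they were Hsd17b1 (13.10 ± 0.17 and 13.21 ± 0.13) and Fst (13.23 ± 0.085 and 13.16 ± 0.17), with 6 of 10 higher, and for theca Insl3 (3.58 ± 0.27 and 3.47 ± 0.084) and Hsd3b1 (13.52 ± 0.50 and 13.72 ± 0.24), with 1 of 6 higher. Stroma had 7 of 9 higher, with Col1a2 at 12.32 ± 0.45 and 12.50 ± 0.55 and Tcf21 at 9.45 ± 0.39 and 9.58 ± 0.35. Endothelium had 5 of 6 higher, with Tek at 6.74 ± 0.24 and 6.94 ± 0.28 and Emcn at 6.56 ± 0.21 and 6.69 ± 0.50. Smooth muscle had 1 of 5 higher, with Des at 7.22 ± 0.57 and 6.94 ± 0.21 and Tagln at 4.73 ± 0.19 and 4.61 ± 0.17. Leukocytes had 2 of 6 higher, with C1qb at 6.57 ± 0.20 and 6.46 ± 0.20 and Csf1r at 5.82 ± 0.19 and 5.70 ± 0.26. Adipocytes had 2 of 3 higher, with Plin1 at 5.56 ± 0.26 and 5.75 ± 0.39 and Cfd at 5.30 ± 0.66 and 5.74 ± 0.99. Oviduct epithelium had 4 of 7 higher, with Wfdc2 at 4.36 ± 0.34 and 4.10 ± 0.15 and Pax2 at 5.07 ± 0.33 and 5.00 ± 0.13.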

How the data were processed

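Illumina TruSeq RNA kits and a NovaSeq instrument were used on whole-ovary RNA, per the labels' protocols. The submitters' processing notes name fastp, STAR, featureCounts and DESeq2 with build GRCm39, without versions or the part each played. The authors' deposited table holds log2 values, judged from their range (-0.21 to 20.19), and its transform is not named. Depth per library is unknown. Folds were taken as 2 raised to the log2 difference, and a transform that shrinks low values would understate it for low genes.

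Columns were matched to samples by the name in the labels. Symbols were found for 22188 of 22891 identifiers. Genes whose log2 mean reached 3.32 (10 on the linear scale) entered limma 3.58.1, run in R 4.3.3 with trended variance, no covariate and Benjamini-Hochberg adjustment over all genes. The fit was tested on simulated data. Lengths and transcripts came from GENCODE M21 on GRCm38, and copies were sought with blastn 2.17.0 (at least 85% identity over 30% of the transcript). Positions are printed only for the RefSeq promoters, which are on GRCm38.p6 and not on the build of the notes.

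The members and 12 marker lists (114 genes, 96 tested) were chosen with earlier results of these data known. Named genes were the 10 members, Uba3, the 2 with the smallest p of each list and the 10 with the highest Pearson r with the members' mean profile among genes with a mean of at least 50. Genes named beyond that rule (Rspo1, Cldn15, Aldh1a2, Gpm6a, Wt1, Aldh1a1, Slpi, Cldn3, Lgals1, Star, Krt8-ps, Gm36026, other pseudogenes, and keratins, uroplakins and oviduct markers outside it) were chosen after their values were seen. Alternatives varied the filter, scaling, trend, library weights and replicate block, and left out each library.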

Additional observations from a re-analysis of the deposited data

Results flagged for a closer look

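Of 130 groups of 5 libraries, over all genes named with values, 7 held a library whose gap to the nearest of the others, as a share of the group's range, was above Dixon's critical value of 0.71. Chance flags about 1 in 20 groups. None of the 10 surface epithelium genes held such a library in either group. Csf1r, the macrophage growth factor receptor, stood at 5.247 in Uba3 cKO replicate 5, below the other 4 libraries of its group (5.74 to 5.89). Aldh1a1 stood at 12.0 in control replicate 1, above the other 4 controls (10.73 to 11.08). Cldn3 stood at 5.824 in Uba3 cKO replicate 4, where the others lay between 5.34 and 5.43. The remaining 4 were in genes under the filter on low values. Krt8-ps stood at 1.279 and Gm36026 at 1.051 in Uba3 cKO replicate 4, where the others lay between 1.08 and 1.11 (Krt8-ps) and between 0.913 and 0.950 (Gm36026). Krt15 stood at 0.6126 in Uba3 cKO replicate 2, where the others lay between 0.433 and 0.459, and Ccdc153 stood at 1.213 in control replicate 3, where the others lay between 1.18 and 1.184.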

How the results depend on the processing

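Under all 16 alternatives 0 genes were called, and 0 of the 160 values of surface epithelium genes passed; the count of all genes at an unadjusted p under 0.05 ran from 133 to 604. The sign of a difference changed in 41 of the 160. Leaving out 1 library, the difference ran from -0.142 to 0.0335 for Krt7, -0.0523 to 0.0745 for Krt8, -0.097 to 0.12 for Krt18, -0.176 to 0.0742 for Krt19, -0.298 to 0.0276 for Lgals7, -0.225 to 0.0583 for Muc16, -0.139 to 0.15 for Upk3b, -0.214 to 0.0683 for Upk1b, -0.225 to 0.106 for Msln and -0.172 to 0.0575 for Epcam, and the count of genes with the lower mean in the Uba3 cKO group ran from 1 to 10. With library quality weights the sign turned for Krt8 (0.0526), Krt18 (0.0671), Krt19 (0.0114) and Upk3b (-0.00705); the cause was not tested. Quantile normalization kept the count at 9 of 10. The groups share replicate numbers only: same-numbered libraries had correlations of deviations from -0.272 to 0.282, and 1 of 5 controls was nearest to its own number. With the replicate block 0 genes were called and 311 were at an unadjusted p under 0.05, and the differences of the 10 genes were the same by construction. What depth limits cannot be given, since the files hold no counts.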
